A study of Mus musculus with 12 samples.

Results

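The genes described here encode proteins of the postsynaptic density and the dendritic spine. They were chosen by symbol: Dlg4, Shank1, Shank3, Homer1, Camk2a, Camk2b, Ppp1r9b, Nrgn, Dlgap1 and Mtap2. Of these 10 genes, 9 were named by at least 1 probe, giving 16 of the 25697 probes on the array, and Shank1 was not analysed here. All animals were male 3xTgAD mice, a triple-transgenic model of Alzheimer's disease that carries mutant human amyloid precursor protein and tau transgenes together with a mutant presenilin-1 allele, so the vehicle animals carried the same disease alleles and no wild-type group was measured. The transgenes in this line are driven by a neuronal Thy1 promoter. Treatment began at 14 months of age and lasted 4 months: the AMI mice drank water with amitriptyline-hydrochloride (AMI, a tricyclic antidepressant) at 100 µg per g body weight, the vehicle mice drank plain water, and tissue was taken at 18 months. Both treatments also included bromodeoxyuridine, a label for dividing cells. Hippocampus and cortex were measured with 3 arrays per tissue and treatment, 12 in all, on Illumina MouseRef-8 BeadChips. The sources do not tie arrays to individual mice, so the spread between arrays of a group may be partly technical.

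The postsynaptic density is the protein scaffold that faces the transmitter release site at an excitatory synapse and holds glutamate receptors in place. Scaffold proteins stack in layers, from PSD-95 at the membrane through SAPAP and Shank to Homer, and calcium entering the spine acts through calmodulin on CaMKII, the most abundant kinase of the structure. Most excitatory synapses of hippocampal and cortical principal neurons sit on spines, whose shape is kept by actin, while the dendrite that carries them is built on microtubules.

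The probes are 50-base oligonucleotides, and where they lie decides which transcripts of a gene they can report. The coordinates given are those of the array annotation, which does not name its genome build. The Dlg4 and Dlgap1 probes each map to a pair of blocks and so cross a splice junction. They are shown with the bases of the second block in capitals, beside the Shank3 probe, which lies in a single block.
Dlg4 (chr11:69857859-69857869 and chr11:69858091-69858129, plus strand): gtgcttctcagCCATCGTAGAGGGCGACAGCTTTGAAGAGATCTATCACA
Dlgap1 (chr17:71136535-71136549 and chr17:71158528-71158562, plus strand): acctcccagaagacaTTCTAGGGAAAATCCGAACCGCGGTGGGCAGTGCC
Shank3 (chr15:89388629-89388678, plus strand): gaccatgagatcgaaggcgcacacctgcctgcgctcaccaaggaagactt
Of the Dlg4 probe, 11 bases lie in the first block and 39 in the second, and of the Dlgap1 probe 15 and 35.

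Homer1 was represented by 4 probes, and those of variants d and S are shown by their first 30 bases because they gave very different signals. The variant d probes start 322 bases apart, whereas the variant S probe starts 47021 bases before the nearer of them.
Homer1 ILMN_2718149 (variant d, probe at chr13:94173516-94173565, plus strand): gtgaagagggttcttcttagtgtatgcttg
Homer1 ILMN_1226785 (variant d, probe at chr13:94173194-94173243, plus strand): ggtcaagccgagaggactgcatctaaattg
Homer1 ILMN_2595990 (variant S, probe at chr13:94126173-94126222, plus strand): gactgaattactatatttccattatctatg
The pair of dim Mtap2 probes came from the same transcript record, 7 bases apart, and share 43 of their 50 bases, so they are nearly the same measurement. Their first 30 bases are shown with the shared bases in capitals.
Mtap2 ILMN_1226553: cactggaGTAACATTTAGGCATGAGCTCTT
Mtap2 ILMN_2709782: GTAACATTTAGGCATGAGCTCTTGGCAGGA
The annotation gave no position for this pair, whereas the bright Mtap2 probe ILMN_3137552 was placed at chr1:66488960-66489009, the Camk2b probe at chr11:5869821-5869870 on the minus strand and the Ppp1r9b probe at chr11:94867898-94867947.

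Values are normalised log2 signals, in which 0 is the mean of all probes of an array and all arrays are scaled to the same spread. They compare arrays for a given probe and do not rank different probes. Fold differences are on this normalised scale and are not ratios of bead signals. Between 49.0% and 51.7% of probes were detected per array (detection p of 0.05 or less), and arrays of a group correlated at 0.986 to 0.994 over all probes. Hippocampal and cortical arrays were exported by different software from separate projects, the brightest probe reached 35958 to 53324 on hippocampal and 24573 to 27400 on cortical arrays, and tissue and export cannot be told apart. Most tissue markers fitted the labels: all 4 detected dentate granule cell markers were higher on every hippocampal than on every cortical array. Hippocampal identity genes were mixed, with 2 of 5 detected higher on every hippocampal array and 1 on every cortical array. Of 9 cortical identity genes, 6 were higher on every cortical array and 1 on every hippocampal array. All 6 detected striatal markers were higher on every cortical array too, and 5 of 9 microglial markers were higher on every hippocampal array. Of 8 astrocyte markers, 2 were higher on every hippocampal and 1 on every cortical array. Their mean in AMI mice was 0.028 to 0.22 in hippocampus against -0.15 to 0.022 in cortex. Of 6 detected interneuron markers, 2 were higher on every cortical array. Their mean was lower in hippocampus in vehicle (-0.31 to -0.15 against -0.063 to 0.41) and AMI mice (-0.27 to -0.020 against 0.13 to 0.23). None of the 6 detected neuron markers separated all arrays by tissue. Their mean deviation was lower in hippocampus than in cortex in vehicle mice, -0.24 to 0.067 against 0.090 to 0.32. It overlapped in AMI mice, -0.40 to 0.18 against -0.21 to 0.22. This mean also split by the SD of an array's log2 signals. It was 0.067 to 0.32 on the 7 arrays with an SD of 1.42 to 1.53, hippocampal replicates 1 among them. On the 5 arrays with an SD of 1.68 to 1.85 it was -0.40 to -0.21. The part of tissue and of SD in this mean was not tested. In AMI mice the oligodendrocyte mean, -0.64 to -0.27 against -0.095 to 0.28, and the endothelial mean, -0.16 to -0.0033 against 0.146 to 0.153, were lower in hippocampus. Choroid plexus markers varied widely, with a mean deviation of 2.09 in hippocampus vehicle replicate 3 and -0.73 to -0.35 on the other hippocampal arrays, and from -0.67 to 0.69 in cortex vehicle and -1.07 to 1.04 in cortex AMI. The part of these markers in the member results was not tested, and in bulk tissue fewer cells of a type and less RNA per cell cannot be told apart.

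Within a tissue, probes detected on 3 or more of its 6 arrays were tested. This held for 13 member probes in hippocampus and 12 in both tissues. The remaining 3 probes were the Camk2a variant 1 probe ILMN_2618525 and the Homer1 variant S and L probes, and the Shank3 probe was detected on 5 hippocampal but only 2 cortical arrays.

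**Figure D1:**
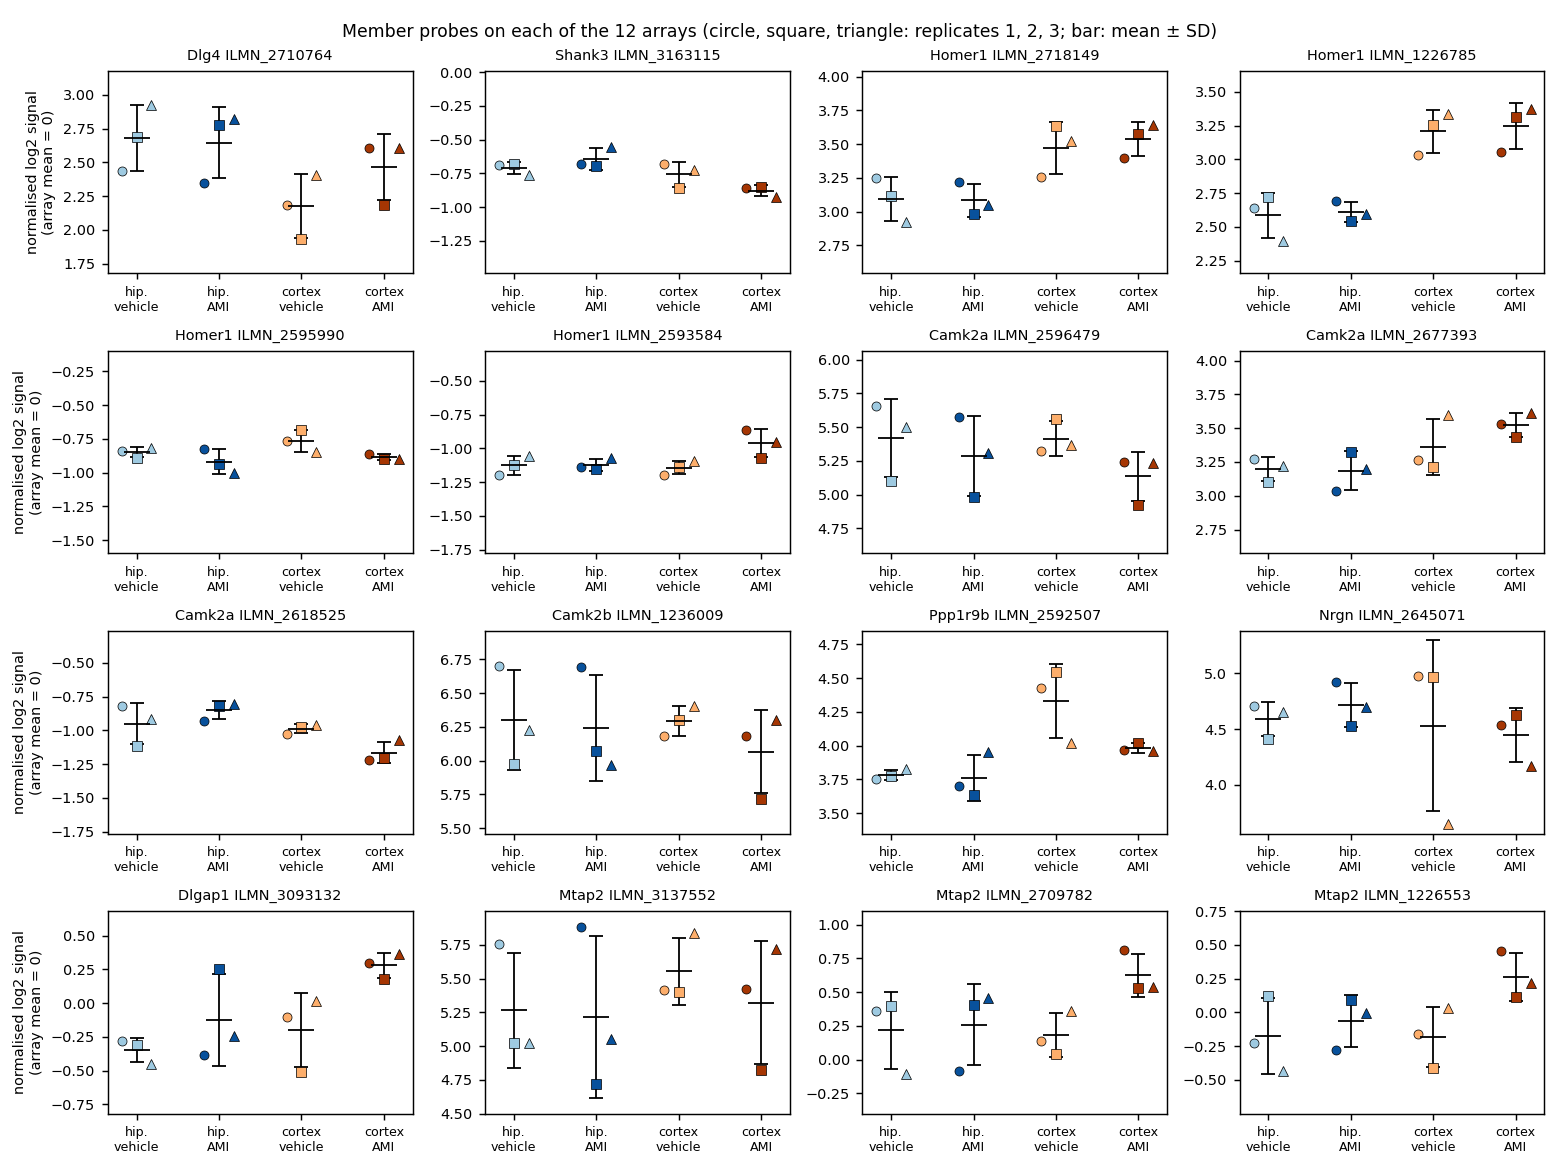
Normalised log2 signal (y axis, array mean at 0) of each of the 16 member probes on the 12 arrays, by group on the x axis. Symbols are replicates and bars are mean ± SD (n = 3). The Homer1 variant d probes and Ppp1r9b sit higher on every cortical than on every hippocampal array, and Nrgn falls to 3.64 on 1 cortical vehicle array.

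Among the scaffolds, Homer1 was higher in cortex than in hippocampus, in vehicle and in AMI mice alike, and on both of its bright probes. Homer proteins link Shank and metabotropic glutamate receptors to calcium stores inside the cell. On ILMN_1226785 the hippocampal values were 2.64, 2.72 and 2.40 in vehicle mice and 2.69, 2.54 and 2.60 in AMI mice. The cortical values were 3.03, 3.25 and 3.34 in vehicle mice and 3.06, 3.32 and 3.37 in AMI mice. Every cortical array thus lay above every hippocampal array, whatever the treatment. The log2 difference, hippocampus minus cortex, was -0.62 ± 0.12 (SE, limma adjusted p = 0.0025) in vehicle and -0.64 ± 0.12 (limma adjusted p = 0.0022) in AMI mice. On the normalised scale this was 1.54-fold and 1.56-fold higher in cortex. With arrays centred on their median and not brought to a common spread, the differences were -0.21 and -0.24 (limma adjusted p = 0.502 and 0.427).

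The other variant d probe, ILMN_2718149, showed the same direction with a smaller difference. It read 3.25, 3.11 and 2.92 in hippocampus vehicle, 3.22, 2.98 and 3.05 in hippocampus AMI, 3.26, 3.64 and 3.52 in cortex vehicle, and 3.40, 3.58 and 3.65 in cortex AMI. The lowest cortical array lay just above the highest hippocampal one. The log2 differences were -0.38 ± 0.12 (limma adjusted p = 0.040) and -0.46 ± 0.12 (limma adjusted p = 0.017). The first was lost without hippocampus vehicle replicate 2 or 3, hippocampus AMI replicate 3, or cortex vehicle replicate 2 or 3 (adjusted p up to 0.149). The second was lost without hippocampus AMI replicate 2 or 3 or cortex AMI replicate 3 (adjusted p up to 0.065). The call on ILMN_1226785 held with any single array left out, at adjusted p of 0.013 or less.

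The short Homer1 variant lacks the coiled-coil through which long forms multimerise, and it is known as an immediate early gene product induced by synaptic activity. Its probe, ILMN_2595990, read 62 to 90 bead units, 1.14 to 1.31 times the median signal of undetected probes on the same array, and was detected on 0 of 6 hippocampal and 1 of 6 cortical arrays. The variant L probe, placed near the start of its transcript, was detected on none of the 12 arrays. The variant d probes, which start at bases 2397 and 2719 of their record, read 11.8 to 32.1 times the same median. The variant L probe starts at base 33 of its own record. Variant names are those of the annotated records, and which variants a probe can report was not tested. These signals therefore do not give the levels of the variants. No difference in the short form could be measured at this signal.

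**Figure D2:**
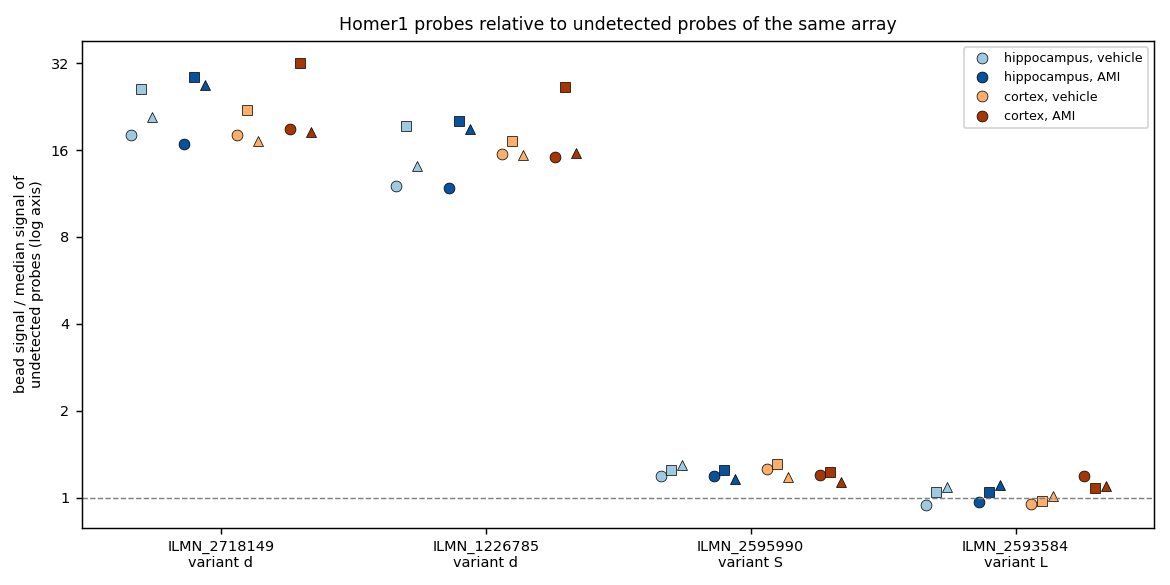
Bead signal of the 4 Homer1 probes divided by the median signal of undetected probes on the same array (log y axis), with 1 point per array coloured by group. The variant d probes lie between 11.8 and 32.1, while the variant S and L probes lie between 0.94 and 1.31, near the dashed line at 1. Variant names are those of the annotated records, and which variants a probe can report was not tested.

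Dlg4, which encodes PSD-95, went the other way. Its probe read 2.44, 2.68 and 2.93 in hippocampus vehicle, 2.34, 2.78 and 2.82 in hippocampus AMI, 2.18, 1.93 and 2.41 in cortex vehicle, and 2.61, 2.18 and 2.61 in cortex AMI. In vehicle mice all hippocampal arrays lay above all cortical arrays, by a narrow margin, whereas in AMI mice the tissues overlapped. The log2 difference was 0.51 ± 0.18 (limma adjusted p = 0.049), 1.42-fold higher in hippocampus, in vehicle mice and 0.18 ± 0.18 (limma adjusted p = 0.487) in AMI mice. The vehicle call was at the threshold and was lost in 8 of the 12 fits that left out 1 array: without hippocampus vehicle replicate 2 or 3, hippocampus AMI replicate 2 or 3, cortex vehicle replicate 1 or 2, or cortex AMI replicate 1 or 3 (adjusted p 0.056 to 0.175). The tissue by treatment interaction of Dlg4 was -0.33 ± 0.25 on the log2 scale (limma adjusted p = 1.0), so the difference between the tissue gaps of vehicle and AMI mice was not significant.

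Dlgap1 encodes a SAPAP protein that joins PSD-95 to Shank, and its probe was dim, at 82 to 204 bead units. It read -0.28, -0.31 and -0.45 in hippocampus vehicle, -0.39, 0.26 and -0.24 in hippocampus AMI, -0.10, -0.51 and 0.01 in cortex vehicle, and 0.29, 0.18 and 0.37 in cortex AMI. Hippocampus AMI replicate 2 stood 0.50 above the next array of its group. The tissue difference was -0.15 ± 0.16 in vehicle mice (limma adjusted p = 0.556) and -0.40 ± 0.16 in AMI mice (limma adjusted p = 0.086). Without hippocampus AMI replicate 2 the second reached -0.60 (limma adjusted p = 0.014).

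Shank3, the scaffold between SAPAP and Homer, read 68 to 95 bead units in all 12 arrays, 1.12 to 1.65 times the median of undetected probes. Its hippocampal values were -0.69, -0.68 and -0.76 in vehicle and -0.68, -0.70 and -0.55 in AMI mice. The groups overlapped, and no tissue difference could be tested.

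Among the signalling genes, the kinase and calmodulin-binding messages overlapped between the tissues in vehicle mice. Camk2a, the alpha subunit of CaMKII, whose mRNA is carried into dendrites, was read by a pair of bright probes in the distal part of the same transcript. ILMN_2596479 read 5.66, 5.10 and 5.50 in hippocampus vehicle, 5.57, 4.98 and 5.30 in hippocampus AMI, 5.32, 5.56 and 5.37 in cortex vehicle, and 5.24, 4.92 and 5.23 in cortex AMI. ILMN_2677393 read 3.27, 3.10 and 3.22, then 3.03, 3.32 and 3.20, then 3.27, 3.21 and 3.60, then 3.53, 3.43 and 3.61 in the same order of groups. On this probe the AMI arrays of the tissues were apart, and on ILMN_2596479 they overlapped.

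Accordingly, ILMN_2677393 was 1.27-fold higher in cortex of AMI mice (log2 difference -0.34 ± 0.12, limma adjusted p = 0.048). Its difference in vehicle mice was -0.16 ± 0.12 (limma adjusted p = 0.353). ILMN_2596479 gave 0.00 ± 0.17 and 0.15 ± 0.17 in vehicle and AMI mice (limma adjusted p = 0.992 and 0.545). The AMI call on ILMN_2677393 stood just under the threshold and was lost in 9 of the 12 fits that left out 1 array, holding only without hippocampus AMI replicate 2 or cortex vehicle replicate 2 or 3 (adjusted p over the 12 fits 0.020 to 0.144). The probes of Camk2a therefore disagreed.

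Camk2b encodes the beta subunit of CaMKII, which binds actin. It read 6.70, 5.98 and 6.22 in hippocampus vehicle, 6.69, 6.07 and 5.97 in hippocampus AMI, 6.18, 6.30 and 6.40 in cortex vehicle, and 6.18, 5.72 and 6.30 in cortex AMI. The tissues overlapped in both treatments, with log2 differences of 0.01 ± 0.22 and 0.18 ± 0.22 (limma adjusted p = 0.988 and 0.590).

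Nrgn encodes neurogranin, a calmodulin-binding protein of dendritic spines. It read 4.71, 4.41 and 4.65 in hippocampus vehicle, 4.92, 4.53 and 4.70 in hippocampus AMI, 4.98, 4.97 and 3.64 in cortex vehicle, and 4.54, 4.62 and 4.17 in cortex AMI. Cortex vehicle replicate 3 stood 1.33 below the other arrays of its group. Its within-group SD in cortex, 0.569, exceeded that of 99.3% of the probes tested there, against a median over probes of 0.141. Nrgn differed between tissues by 0.06 ± 0.28 in vehicle (limma adjusted p = 0.908) and 0.27 ± 0.28 in AMI mice (limma adjusted p = 0.517). Without cortex vehicle replicate 3 the vehicle difference turned to -0.38 (limma adjusted p = 0.093).

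Of the cytoskeletal genes, Ppp1r9b was higher in cortex. It encodes spinophilin, an actin-binding protein that brings protein phosphatase 1 to spines. Its probe read 3.75, 3.78 and 3.82 in hippocampus vehicle, 3.70, 3.63 and 3.96 in hippocampus AMI, 4.43, 4.54 and 4.02 in cortex vehicle, and 3.97, 4.02 and 3.96 in cortex AMI. All cortical arrays were above all hippocampal arrays, but in AMI mice the highest hippocampal and lowest cortical array were level to 2 decimals. The difference was -0.55 ± 0.13 in vehicle mice (limma adjusted p = 0.0083), 1.46-fold higher in cortex, and -0.22 ± 0.13 in AMI mice (limma adjusted p = 0.230). The vehicle call held with any single array left out (-0.70 to -0.44, adjusted p of 0.036 or less), but not with arrays centred on their median only (-0.02, limma adjusted p = 0.981) or with neqc, which models background from the detection p-values (-0.41, limma adjusted p = 0.067). The interaction was 0.33 ± 0.18 (limma adjusted p = 1.0), so no change in the tissue gap with AMI was shown.

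Mtap2, now named Map2, encodes the main microtubule-associated protein of dendrites. Its bright probe ILMN_3137552 read 5.75, 5.02 and 5.02 in hippocampus vehicle, 5.88, 4.72 and 5.05 in hippocampus AMI, 5.41, 5.40 and 5.84 in cortex vehicle, and 5.42, 4.82 and 5.72 in cortex AMI. Replicate 1 was the high array in both hippocampal groups, and the tissues overlapped. The dim probe ILMN_2709782 read 0.36, 0.40 and -0.11, then -0.09, 0.40 and 0.46, then 0.14, 0.05 and 0.36, then 0.81, 0.53 and 0.54 in the same order of groups. The probe that overlaps it in sequence, ILMN_1226553, read -0.22, 0.13 and -0.43, then -0.28, 0.09 and 0.00, then -0.16, -0.41 and 0.03, then 0.46, 0.12 and 0.21. No Mtap2 probe passed the test between tissues (limma adjusted p 0.127 to 0.993), although the bright probe did, as higher in hippocampus, with arrays centred on their median only.

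The brightest member probes followed the spread of signals on an array. On the 7 arrays whose log2 signals had an SD of 1.42 to 1.53, Mtap2 ILMN_3137552 read 5.40 to 5.88. On the 5 arrays with an SD of 1.68 to 1.85 it read 4.72 to 5.05. Camk2b read 6.18 to 6.70 and 5.72 to 6.22 on the same arrays, and Camk2a ILMN_2596479 read 5.23 to 5.66 and 4.92 to 5.50. Hippocampus vehicle replicate 1, hippocampus AMI replicate 1 and 5 of the 6 cortical arrays had the smaller SD. Nrgn did not follow this order, being lowest on the pair of cortical arrays with the smallest SD, and the part of the SD in these values was not tested.

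**Figure D3:**
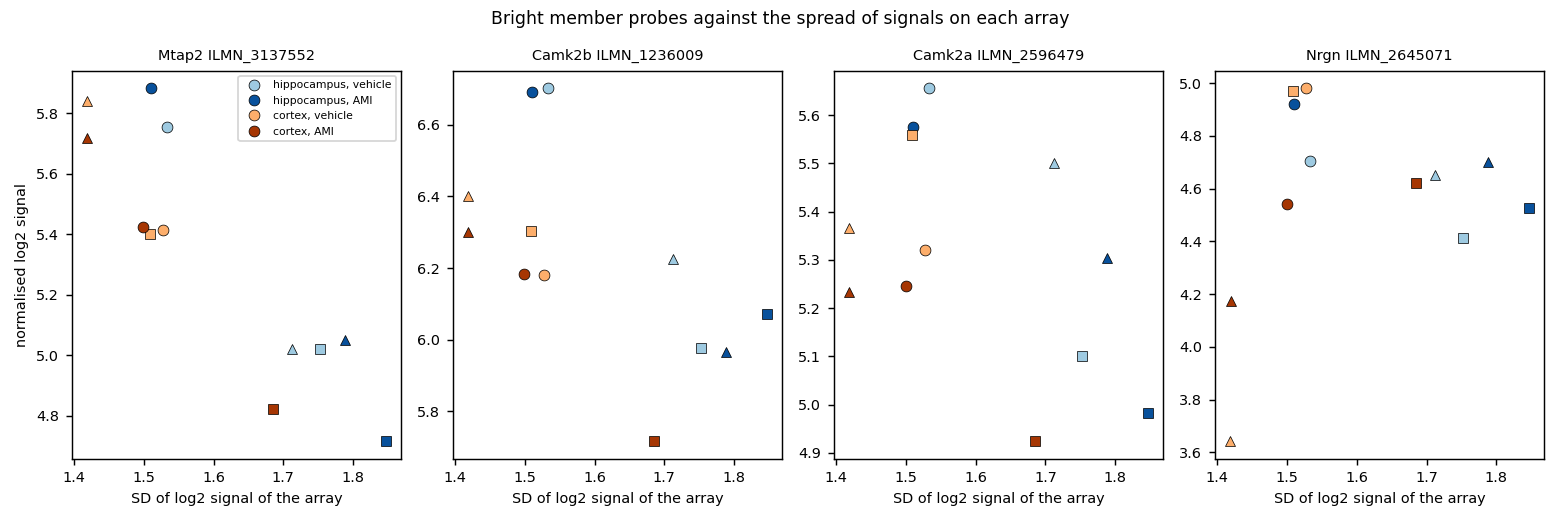
Normalised log2 signal of 4 bright member probes (y axes) against the SD of log2 signals of each array (x axes), with 1 point per array coloured by group. Mtap2 ILMN_3137552 reads 5.40 to 5.88 on the arrays with an SD up to 1.53 and 4.72 to 5.05 on those from 1.68, while the 2 lowest Nrgn values lie at the smallest SD.

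Counted over probes, 4 of 12 member probes (3 of 8 genes by their brightest tested probe) passed the test between tissues in vehicle mice, against 24.9% of all 12430 probes. These were both bright Homer1 probes and Ppp1r9b, higher in cortex as were 10.0% of all probes, and Dlg4, higher in hippocampus as were 14.9%. In AMI mice 3 of 12 passed (1 of 8 genes), against 26.1% of all probes. All 3, both Homer1 probes and Camk2a ILMN_2677393, were higher in cortex, as were 11.5% of all probes, and none was higher in hippocampus, against 14.6%. The share of members called was thus near that of all probes. The median difference of the 12 member probes was -0.07 in vehicle and -0.27 in AMI mice, beside 0.03 and 0.02 over all probes tested. The vehicle and AMI comparisons used different arrays of the same export pair. Over all 6 arrays per tissue, 3 of 12 member probes were higher on every cortical array, against 8.79% of all probes, and none was higher on every hippocampal array, against 13.2%.

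Scaling moved these tissue differences. When arrays were centred on their median and not brought to a common spread, the median difference of all probes shifted from 0.03 to 0.21 in vehicle and from 0.02 to 0.22 in AMI mice. This centring called 17.8% of all probes in vehicle and 21.3% in AMI mice, against 24.9% and 26.1% with the common spread. Of the probes called, 89.9% were then higher in hippocampus in vehicle mice, against 59.7% with the common spread, and 87.4% against 56.0% in AMI mice. Homer1 ILMN_1226785 then differed by -0.21 and -0.24 (limma adjusted p = 0.502 and 0.427), or -0.42 and -0.46 relative to the shift of all probes. Homer1 ILMN_2718149 differed by 0.06 and -0.01, a change of sign in vehicle mice, or -0.14 and -0.23 relative to the shift. Ppp1r9b differed by -0.02 in vehicle mice, or -0.22 relative to the shift, and Dlg4 by 0.86, or 0.65 relative to it. Camk2a ILMN_2677393 turned to 0.14 in AMI mice, -0.08 relative to the shift. Camk2b, at 0.77 and 0.95, passed the test as higher in hippocampus under this scaling (limma adjusted p = 0.019 and 0.007). So did Mtap2 ILMN_3137552, at 0.38 and 0.56 (limma adjusted p = 0.025 and 0.0038), and, in AMI mice, Camk2a ILMN_2596479, at 0.82 (limma adjusted p = 0.026). Quantile normalization called 29.2% of all probes in vehicle and 31.9% in AMI mice. After quantile normalization the vehicle calls of Homer1, Ppp1r9b and Dlg4 and the Homer1 calls in AMI mice held, and the AMI call of Camk2a ILMN_2677393 was lost (limma adjusted p = 0.090). It called 3 further probes in AMI mice: Camk2b at 0.32, higher in hippocampus, and Dlgap1 at -0.46 and Mtap2 ILMN_2709782 at -0.44, higher in cortex (limma adjusted p = 0.036, 0.039 and 0.048). The shares of all probes called by neqc were 28.3% in vehicle and 31.2% in AMI mice. With neqc both calls on Homer1 ILMN_1226785 held, whereas Homer1 ILMN_2718149, Ppp1r9b and Dlg4 missed the threshold in vehicle mice (limma adjusted p = 0.070, 0.067 and 0.060). In AMI mice neqc also ended the call of Camk2a ILMN_2677393 (limma adjusted p = 0.124) and called Dlgap1, at -0.70 (limma adjusted p = 0.048).

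**Figure D4:**
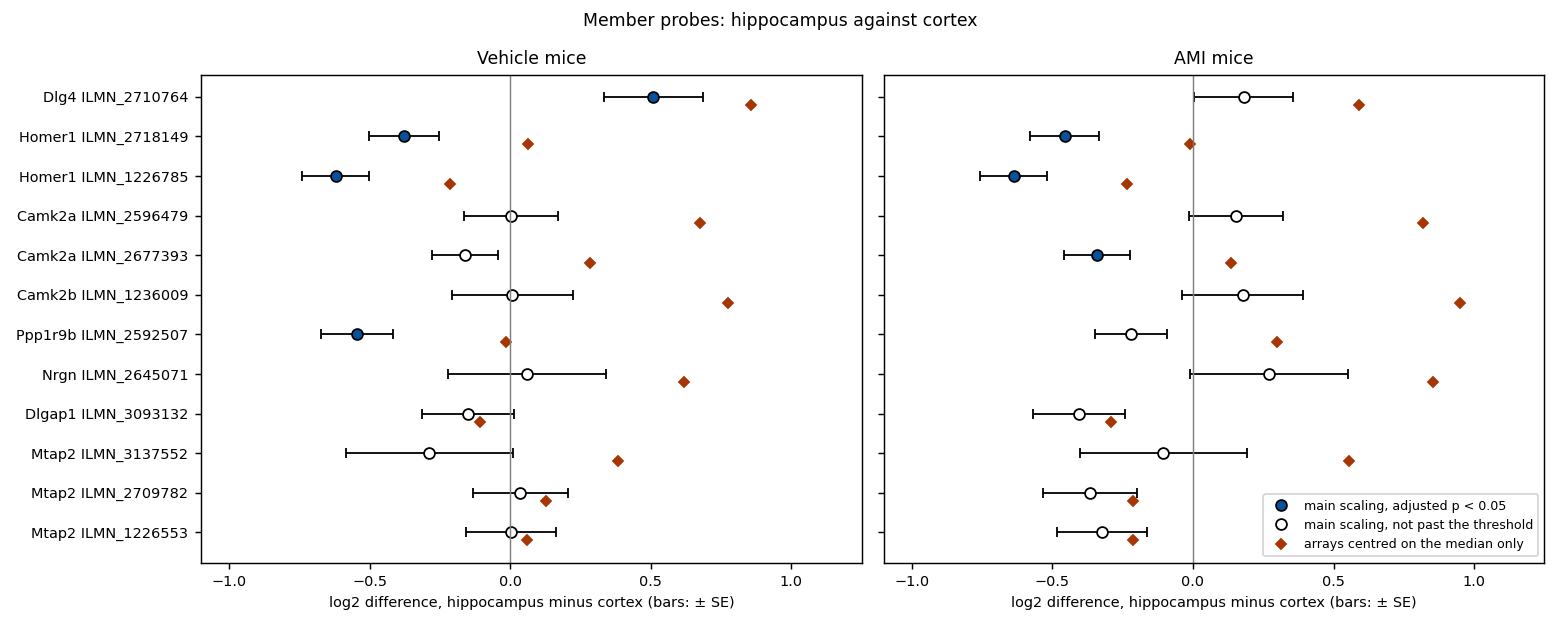
Log2 difference, hippocampus minus cortex (x axis), of the 12 member probes tested in both tissues, in vehicle (left) and AMI mice (right). Circles with ± SE bars use arrays scaled to a common spread and are filled where the adjusted p is under 0.05, and diamonds show the same difference with arrays centred on the median only, which moves Homer1 ILMN_1226785 from -0.62 to -0.21 in vehicle mice.

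AMI changed no member probe past the threshold in hippocampus. Of 13163 probes tested there, 0 passed (0%), and 309 (2.35%) had an unadjusted p under 0.05 by limma, of which 0 were members. The member differences, AMI minus vehicle, ranged from -0.13 to 0.22 with a median of -0.01, beside 0.01 over all probes. Homer1 ILMN_1226785 differed by 0.02 (95% confidence interval -0.23 to 0.27) and Ppp1r9b by -0.02 (-0.27 to 0.22). Dlg4 differed by -0.04 (-0.41 to 0.34), and the largest difference was that of Dlgap1, at 0.22 (-0.14 to 0.59). Bright Mtap2 had the widest interval, -0.73 to 0.64. The vehicle and AMI arrays overlapped for all 13 probes, against 7.89% of all probes that did not overlap. Same-numbered hippocampal arrays deviated together, though only number 1 stood apart from differently numbered arrays. With the number as a block, 1063 probes (8.08%) but again 0 members had an unadjusted p under 0.05 by limma. The lowest limma adjusted p of a member was 0.661. Within the 3 pairs 2 of 13 member probes kept one sign, against 31.4% of all probes. Nrgn was higher in AMI by 0.21, 0.11 and 0.05, with a blocked difference of 0.13 (95% confidence interval -0.05 to 0.30, limma adjusted p = 0.686). Camk2a ILMN_2596479 differed by -0.08, -0.12 and -0.20, with a blocked difference of -0.13 (-0.30 to 0.04, limma adjusted p = 0.673).

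In cortex AMI again changed no member probe past the threshold, and 0 of 12944 probes (0%) passed overall. An unadjusted p under 0.05 by limma was found for 813 probes (6.28%), 5 of the 12 members among them. Dlgap1 was the member with the largest difference, 0.48 ± 0.14 (limma unadjusted p = 0.0092, adjusted p = 0.756). Its cortical AMI arrays, at 0.18 to 0.37, all lay above its vehicle arrays, at -0.51 to 0.01. The pair of overlapping Mtap2 probes differed by 0.44 ± 0.12 and 0.44 ± 0.14 (limma unadjusted p = 0.0062 and 0.012, adjusted p = 0.756 for both). Their AMI arrays also lay above all vehicle arrays, whereas the bright Mtap2 probe gave -0.23 ± 0.22 with overlapping groups. The Mtap2 probes thus disagreed in sign.

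The other members of this kind were lower after AMI in cortex. Ppp1r9b differed by -0.35 ± 0.14 (limma unadjusted p = 0.036, adjusted p = 0.766). Its vehicle replicates 1 and 2 were high and replicate 3, at 4.02, was level with the AMI arrays, and without it the difference was -0.50 (adjusted p = 0.125). Camk2a ILMN_2596479 differed by -0.28 ± 0.12 (limma unadjusted p = 0.048, adjusted p = 0.781), with all AMI arrays below all vehicle arrays, while ILMN_2677393 differed by 0.17 ± 0.12 (adjusted p = 0.867). Dlg4 differed by 0.29 (95% confidence interval -0.07 to 0.66) with overlapping groups, and Camk2b by -0.23 (-0.58 to 0.13). Nrgn differed by -0.09 (-0.84 to 0.67), and by -0.53 without cortex vehicle replicate 3 (limma adjusted p = 0.146). In all, 4 of 12 member probes had AMI and vehicle arrays that did not overlap, against 12.2% of all probes, and 2 of those 4 share most of their sequence.

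**Figure D5:**
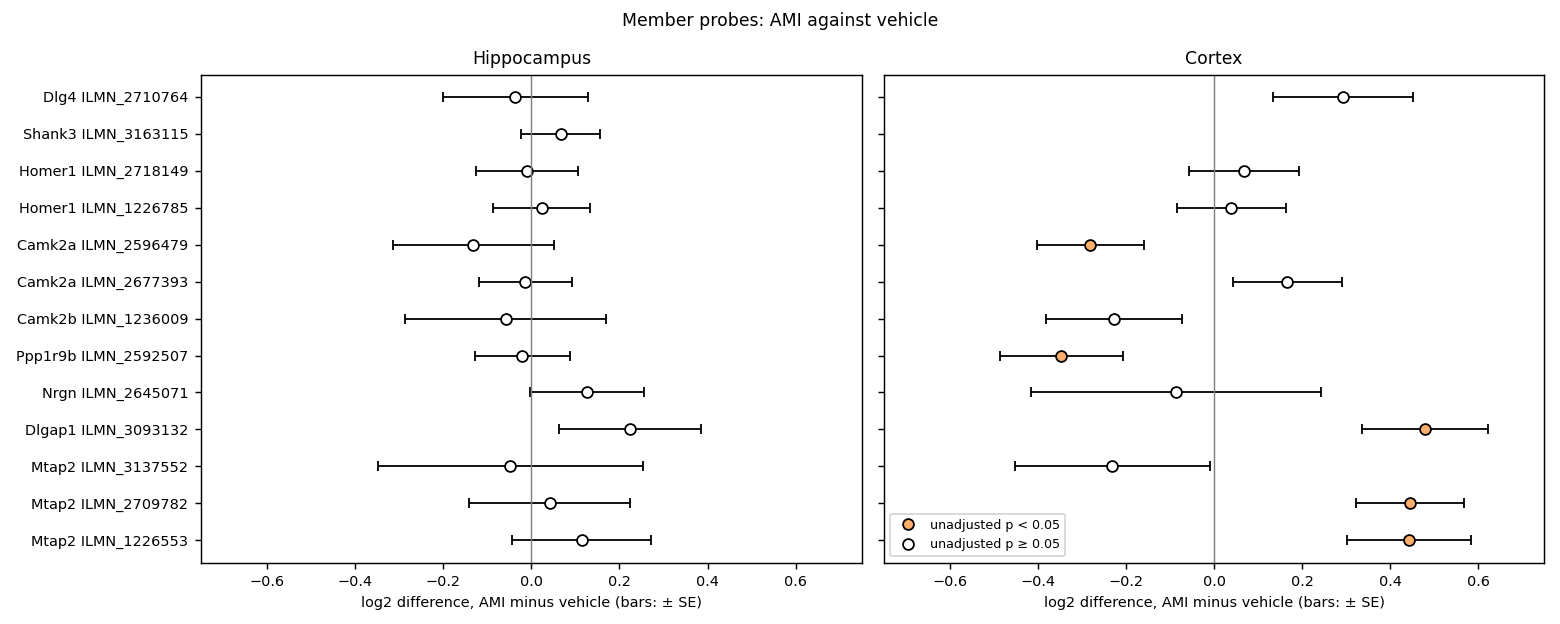
Log2 difference, AMI minus vehicle (x axis, bars ± SE), of the member probes tested in hippocampus (left, 13 probes) and cortex (right, 12 probes). Hippocampal differences lie between -0.13 and 0.22, cortical ones between -0.35 and 0.48, filled points have an unadjusted p under 0.05, and none has an adjusted p under 0.05.

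No member differed in its AMI response between the tissues past the threshold, nor did any of 12430 probes (0%). By limma, 377 probes (3.03%) and 0 members had an unadjusted p under 0.05. The interaction, hippocampal minus cortical response, ranged from -0.40 for Mtap2 ILMN_2709782 to 0.33 for Ppp1r9b.

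The other genes of the postsynaptic density, spine and dendrite came from 5 lists with 99 genes on the array, of which 79 were tested in both tissues by their brightest probe. In vehicle mice 25 passed (8 higher in hippocampus and 17 in cortex) and in AMI mice 23 passed (9 and 14), which is 31.6% and 29.1%, against 25.8% and 26.1% of all 9470 genes. Of all genes, 14.8% were higher in hippocampus in either treatment, and 11.0% in vehicle and 11.3% in AMI mice were higher in cortex. For AMI against vehicle, 0 of 82 genes passed in hippocampus and 0 of 81 in cortex (0% of all genes in both), with an unadjusted p under 0.05 by limma for 1 and 12 of them (2.47% and 5.29% of all genes). The scaffold list had 3 of 13 genes called in each comparison. Cnksr2, a scaffold that binds PSD-95, was higher in hippocampus by 1.18 ± 0.14 in vehicle and 0.90 ± 0.14 in AMI mice (limma adjusted p = 1.1e-04 and 7.3e-04). Dlgap2, a relative of Dlgap1, was higher in cortex, with differences of -0.79 ± 0.22 and -0.65 ± 0.22 (limma adjusted p = 0.018 and 0.043).

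Of the signalling list, 7 of 19 genes passed in vehicle and 5 in AMI mice. Camk2n1, an inhibitor of CaMKII, was higher in cortex, with differences of -1.20 and -1.15 that shrank to -0.39 and -0.38 with arrays centred on the median only. Camk2d, the delta subunit of CaMKII, was also higher in cortex (-0.67 and -0.74, or -0.60 and -0.64 with that centring), as was Ppp1r2, an inhibitor of protein phosphatase 1 (-0.42 and -0.48). Camkk1, a kinase that activates CaMKI and CaMKIV, was higher in hippocampus (0.56 and 0.71). Their limma adjusted p lay between 2.9e-04 and 0.043. With arrays centred on the median only, Ppp1r2 turned to 0.13 and 0.08, or -0.07 and -0.14 relative to the shift of all probes.

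In the spine cytoskeleton list, 5 of 24 genes passed in vehicle and 7 in AMI mice. Arpc5, a subunit of the actin-branching Arp2/3 complex, and Cyfip2, of the WAVE complex that activates it, were higher in hippocampus in vehicle (0.74 and 0.61) and AMI mice (0.76 and 0.70). The motor Myo5a (-0.60 in both) and the kinase Pak3 (-0.29 and -0.31) were higher in cortex, and Pak3 turned to 0.12 and 0.10 with median centring, or -0.08 and -0.12 relative to the shift. Of 8 adhesion genes, 3 passed in vehicle and 2 in AMI mice. The 2 were Lrrtm1, a postsynaptic adhesion protein (0.89 and 1.03), and the ephrin receptor Ephb2 (0.53 and 0.42), both higher in hippocampus.

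All of the dendrite and microtubule list's called genes, 7 of 15 in vehicle and 6 of 15 in AMI mice, were higher in cortex. Its median difference was -0.38 and -0.34, beside 0.03 and 0.02 over all genes. Dynll2, a dynein light chain, differed by -0.75 and -1.49, the doublecortin-like kinase Dclk1 by -0.77 and -0.86, the neurofilament Nefm by -0.75 and -0.87, and the microtubule-destabilising stathmin Stmn1 by -0.61 and -0.81. These 4 stayed negative with median centring, whereas the other 2 genes called in both treatments, Mtap7d1 (-0.53 and -0.61) and Stmn4 (-0.38 and -0.44), turned to 0.10 and 0.01 and to 0.08 and 0.02. Relative to the shift of all probes, Mtap7d1 was at -0.11 and -0.21 and Stmn4 at -0.13 and -0.20. Bright Mtap2, at -0.29 and -0.10, did not pass the test.

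By pattern over the 12 arrays, the genes most like each member (highest Pearson r among 12430 probes, counting other genes only) were given by its brightest probe. They share arrays, tissue and export with the member, so r is a description. For Homer1 ILMN_2718149 they were Sfrs7 (0.98), a splicing factor, and 3110035E14Rik (0.96). For Ppp1r9b they were Extl3 (0.96) and Syn1 (0.95), a synaptic vesicle protein, and for Dlg4 1110007A13Rik (0.91) and Rundc1 (0.90). Dlgap1 went with Hspd1 (0.97) and Sirpa (0.95), Camk2b with Sort1 (0.96) and Ppp3ca (0.96), a calcineurin subunit, and Camk2a with Hsp90ab1 (0.86) and Cox4i1 (0.85). The genes nearest to Nrgn were Timm8b (0.97) and Ndufa1 (0.96), which encode mitochondrial proteins.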

How the data were processed

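The authors deposited linear bead signal intensity and detection p-values per probe, not normalized and not background-subtracted per the file headers, in a hippocampal table (BeadStudio) and a cortical table (GenomeStudio). Log2 intensities were centred on each array's mean and scaled to the mean SD of the 12 arrays, following the z normalization of the study's methods. Tests used limma 3.58.1 in R 4.3.3 with p-values adjusted by Benjamini-Hochberg across every probe tested and called under 0.05: 6 arrays for AMI against vehicle within a tissue, 12 arrays and 4 group means for tissue comparisons and the interaction. Per gene, the probe with the highest mean log2 signal counted. Members and lists were chosen with earlier results of these data known. Named genes were all members, up to 4 genes per list with the largest tissue difference among those called in both treatments, any list gene called for AMI, and the 2 genes most like each member (those for Mtap2 are not reported here). Same-numbered hippocampal arrays deviated together (correlations 0.61, 0.30 and 0.29). Vehicle 2 with AMI 3 (0.28) and vehicle 3 with AMI 2 (0.17) did so too, and the remaining differently numbered pairs lay at -0.47 to -0.33. Only number 1 stood apart, so pairing by number was not settled. Alternatives were median centring, quantile normalization, neqc, no or a stricter detection filter, the methods' t-test, array weights, leaving out each array and blocking on replicate number. The fits were tested on simulated data, with noise drawn independently for each probe and array, unlike the shared deviations above. The simulation changed 200 probes. For AMI against vehicle, a log2 change of 0.5 was called for 0% of them in hippocampus and 0.5% in cortex. A change of 1 was called for 83.5% and 85%. These shares hold for the simulated settings only. With the main settings, every member difference after AMI was smaller than 0.5. The number of arrays limits the precision.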

Additional observations from a re-analysis of the deposited data

How the results depend on the processing

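For AMI against vehicle, 0 member genes and 0 genes of the 5 lists passed under any alternative run, and 0 member genes passed for the interaction. With array weights Dlg4 in cortex came to 0.45 (limma adjusted p = 0.070), beside 0.29 (limma adjusted p = 0.795) with the main settings. That weighting gave 2954 of all 12944 probes an unadjusted p under 0.05 by limma, against 813. Over all probes in cortex, array weights and neqc (normexp background, quantile, offset 16) each called 2 probes and leaving out cortex AMI replicate 3 called 1, and in hippocampus leaving out AMI replicate 2 called 1. The member genes called between tissues in vehicle mice, 3 with the main settings, were 0 with neqc, 0 with the methods' t-test and 1 to 3 in the leave-one-out fits. Median centring also called 3, but these were Dlg4, Camk2b and Mtap2 in place of Dlg4, Homer1 and Ppp1r9b. In AMI mice, where 1 was called, there were 3 after quantile normalization, 3 with median centring, 2 with neqc, 2 with array weights, 0 with the methods' t-test and 0 to 1 in the leave-one-out fits. The 3 with median centring were Camk2a, Camk2b and Mtap2, without Homer1, the gene called with the main settings. Vehicle counts were 1 without hippocampus vehicle replicate 2 or 3, hippocampus AMI replicate 3 or cortex vehicle replicate 2, and the AMI count was 0 without hippocampus AMI replicate 3 or cortex AMI replicate 3. Of the list genes, 25 in vehicle and 23 in AMI mice, the methods' t-test called 2 and 7, array weights called 49 in AMI mice, and the leave-one-out fits called 14 to 28 and 11 to 26. The lowest list counts came without hippocampus vehicle replicate 1 (14) or 2 (16), and without cortex AMI replicate 1 (11), cortex AMI replicate 3 (14) or hippocampus AMI replicate 3 (15). Over all probes, the methods' t-test called 941 and 1319 between tissues against 3099 and 3239, and array weights called 4750 and 6397. Median centring called 2218 and 2645, quantile normalization 3626 and 3964, and neqc 3518 and 3878. The leave-one-out fits called 2179 to 3412 in vehicle and 1947 to 3773 in AMI mice. The cause of these changes was not tested.

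The signs of several member differences turned with the setting, and the cause was not tested. With median centring the hippocampal AMI differences were 0.073 for Dlg4, 0.10 for Homer1 ILMN_2718149, 0.035 for Camk2a ILMN_2596479, 0.12 for Camk2a ILMN_2677393, 0.14 for Camk2b, 0.11 for Ppp1r9b and 0.11 for Mtap2 ILMN_3137552, and the cortical one was 0.05 for Nrgn. The median over all probes moved from 0.01 to 0.07 in hippocampus and from 0.02 to 0.06 in cortex. Relative to it, Dlg4 was at 0.004, Camk2a ILMN_2596479 at -0.033, the other hippocampal differences at 0.031 to 0.071 and cortical Nrgn at -0.005. With this centring the tissue differences in vehicle mice were 0.064 for Homer1 ILMN_2718149, 0.28 for Camk2a ILMN_2677393 and 0.38 for Mtap2 ILMN_3137552. In AMI mice they were 0.14 for Camk2a ILMN_2677393, 0.30 for Ppp1r9b and 0.56 for Mtap2 ILMN_3137552. Relative to the shift of all probes they were -0.14, 0.08 and 0.18 in vehicle and -0.08, 0.08 and 0.34 in AMI mice. After quantile normalization the hippocampal AMI differences were 0.0062 for Homer1 ILMN_2718149, 0.017 for Camk2a ILMN_2677393, 0.061 for Camk2b and 0.012 for Mtap2 ILMN_3137552, and the cortical one was 0.015 for Nrgn. The tissue differences were -0.051 and -0.065 for Mtap2 ILMN_2709782 and ILMN_1226553 in vehicle and 0.028 for Mtap2 ILMN_3137552 in AMI mice. With neqc the hippocampal AMI differences were 0.0064, 0.017, 0.061 and 0.012 for the same 4 probes, and the cortical one was 0.018 for Nrgn. The tissue differences were -0.086 and -0.11 for the overlapping Mtap2 probes in vehicle and 0.028 for Mtap2 ILMN_3137552 in AMI mice. With array weights the hippocampal AMI differences were 0.059 for Dlg4, -0.050 for Homer1 ILMN_1226785, 0.070 for Camk2a ILMN_2677393 and 0.064 for Ppp1r9b, and the cortical one was -0.012 for Homer1 ILMN_1226785. The tissue differences were -0.17 for Camk2a ILMN_2596479, -0.14 for Camk2b and -0.36 for Nrgn in vehicle and -0.10 for Camk2b in AMI mice.

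In the leave-one-out fits the hippocampal AMI difference crossed 0 for Camk2a ILMN_2596479 (-0.29 to 0.021), Camk2a ILMN_2677393 (-0.082 to 0.063), Camk2b (-0.28 to 0.14), Dlg4 (-0.16 to 0.11), Homer1 ILMN_1226785 (-0.071 to 0.091), Homer1 ILMN_2718149 (-0.10 to 0.067), Mtap2 ILMN_1226553 (-0.012 to 0.27), Mtap2 ILMN_2709782 (-0.12 to 0.22), Mtap2 ILMN_3137552 (-0.38 to 0.20) and Ppp1r9b (-0.12 to 0.044). The cortical AMI difference crossed 0 for Homer1 ILMN_1226785 (-0.048 to 0.14), Homer1 ILMN_2718149 (-0.038 to 0.15), Mtap2 ILMN_3137552 (-0.43 to 0.018) and Nrgn (-0.53 to 0.14). The tissue difference crossed 0 in vehicle mice for Camk2a ILMN_2596479 (-0.11 to 0.16), Camk2b (-0.19 to 0.17), Mtap2 ILMN_1226553 (-0.15 to 0.13), Mtap2 ILMN_2709782 (-0.056 to 0.20) and Nrgn (-0.38 to 0.28), and in AMI mice for Camk2b (-0.047 to 0.32) and Mtap2 ILMN_3137552 (-0.44 to 0.15). The interaction crossed 0 for Camk2a ILMN_2596479 (-0.010 to 0.30).

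With replicate number as a replicate block, 0 probes passed in hippocampus and 0 in cortex (1063 and 1125 at an unadjusted p under 0.05 by limma). Cortical arrays of the same number had correlations of deviations of -0.06, 0.33 and 0.33, beside -0.42 to 0.27 for different numbers. Pairing was thus not settled there, and in the tissue comparisons same-number values were -0.35 to 0.09. As a random block in the tissue comparisons, replicate number took Dlg4 in vehicle mice to a limma adjusted p of 0.052. It took Camk2a ILMN_2677393 in AMI mice to 0.051 and changed no other call on a member probe. The headers name no slides, so slide as a block was not run, and the t-test has no form for the interaction. Probes near background, those of Shank3, Homer1 variants S and L and Camk2a variant 1, have little signal to show a difference. Dlgap1 and the dim Mtap2 probes also had low signal, at 82 to 204 and 89 to 254 bead units. They were detected on all 6 arrays of each tissue.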
